A study of Homo sapiens with 12 samples.

Results

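Wnt ligands, their receptors and the secreted proteins that restrain them were examined in human adipocytes with and without knockdown (KD) of the long intergenic non-coding RNA linc-ADAIN. The members were taken by gene symbol: every WNT gene, the Frizzled receptors (FZD), LRP5, LRP6, ROR1, ROR2, RYK, the R-spondins (RSPO1 to RSPO4), their receptors LGR4 to LGR6, the antagonists DKK1 to DKK4, SFRP1, SFRP2, SFRP4, SFRP5, FRZB and WIF1, and AXIN2. This gave 52 of the 28901 gene names in the table, and 42 of them had at least 10 counts over the 12 libraries and were tested. The cells were ASC52telo hTERT, an adipose-derived mesenchymal stem cell line immortalized with telomerase, carrying a lentiviral pLVX-shRNA2 vector with ZsGreen for scramble shRNA or linc-ADAIN shRNA and sorted for ZsGreen, so that each group is a sorted transduced population of 1 line. Every group had 7 days in differentiation medium with insulin, dexamethasone, isobutylmethylxanthine, rosiglitazone, pantothenate and biotin. A further 7 days followed in medium with insulin, dexamethasone, pantothenate and biotin, and polyA RNA was sequenced at day 14. Each shRNA was studied without LPS and with 100 ng/mL LPS (a bacterial cell wall lipid that triggers inflammatory signalling) for 4 h. Each of the 4 groups has 3 libraries, which are the triplicate of 1 experiment, so that p-values measure the spread between these libraries only.

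Wnt proteins are secreted lipid-modified ligands that bind Frizzled receptors. Together with LRP5 or LRP6 they stabilize β-catenin, which acts with TCF/LEF factors on target genes, whereas binding with ROR1, ROR2 or RYK is linked to signalling that does not need β-catenin. R-spondins acting on LGR receptors prolong the surface life of Frizzled proteins, DKK proteins block LRP5 and LRP6, and SFRP proteins bind Wnt ligands outside the cell. In adipose tissue, β-catenin signalling is known to hold back the differentiation of precursors into adipocytes.

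Counts on named genes were 28.4 to 53.8 M (1e6) per library, and values are given as counts per 1e6 counts (CPM) after TMM scaling, a correction for library composition. A member was called changed with an adjusted p under 0.05 from edgeR's quasi-likelihood test over 17173 genes, and a change of at least 2-fold is given beside it. The row of linc-ADAIN was not analysed here. Of 10 adipocyte markers, LPL (0 to 82 counts per library) and LEP (0 to 21 counts) were at or near 0 in all groups. FABP4 was at 1981 ± 258 CPM in the scramble libraries and 628 ± 288 CPM in KD (SD, n = 3 each). In KD 7 of these 10 markers were lower and 0 higher without LPS, with a summed level of 3200 to 4427 CPM in the scramble libraries and 642 to 1880 CPM in KD. With LPS, 8 of 10 were lower and 0 higher, with sums of 3702 to 4288 CPM in the scramble libraries and 519 to 1206 CPM in KD. The part of this shift in the results that follow was not tested, and in bulk RNA fewer cells of a type and less RNA per cell cannot be told apart. The paper reports the opposite direction by qPCR and western blot in adipocytes of this line, with adipogenic markers higher in KD. FABP4 and adiponectin are among those markers. Why these libraries differ from that report was not tested. Of 8 genes of the LPS response, 8 rose with LPS in scramble control and 8 in KD, and 5 were higher in KD before any LPS.

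Levels differed widely between the members. Per kilobase of mean transcript length, the highest level in scramble control was that of DKK1, the secreted blocker of LRP5 and LRP6, at 590.3 ± 58.5 CPM per kilobase (SD, n = 3). RYK, a receptor-like Wnt binder, followed at 53.3 ± 0.706 and WNT5A, the leading ligand of β-catenin-independent signalling, at 49.4 ± 10.9 CPM per kilobase, values closer together than the spread of WNT5A. LRP5, at 41.2 ± 3.01, and SFRP4, at 37.9 ± 20.0 CPM per kilobase, came next, ahead of WNT5B at 31.2 ± 3.71, which is closely related to WNT5A. The spread of SFRP4 covered all of these neighbours. In KD with LPS the order turned, with WNT5A at 268.7 ± 45.2 and DKK1 at 130 ± 13.1 CPM per kilobase. Of the 42 members tested, 25 reached a mean of 1 CPM in at least 1 group and 21 did so in every group. The other 17 stayed under 1 CPM in every group.

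**Figure D1:**
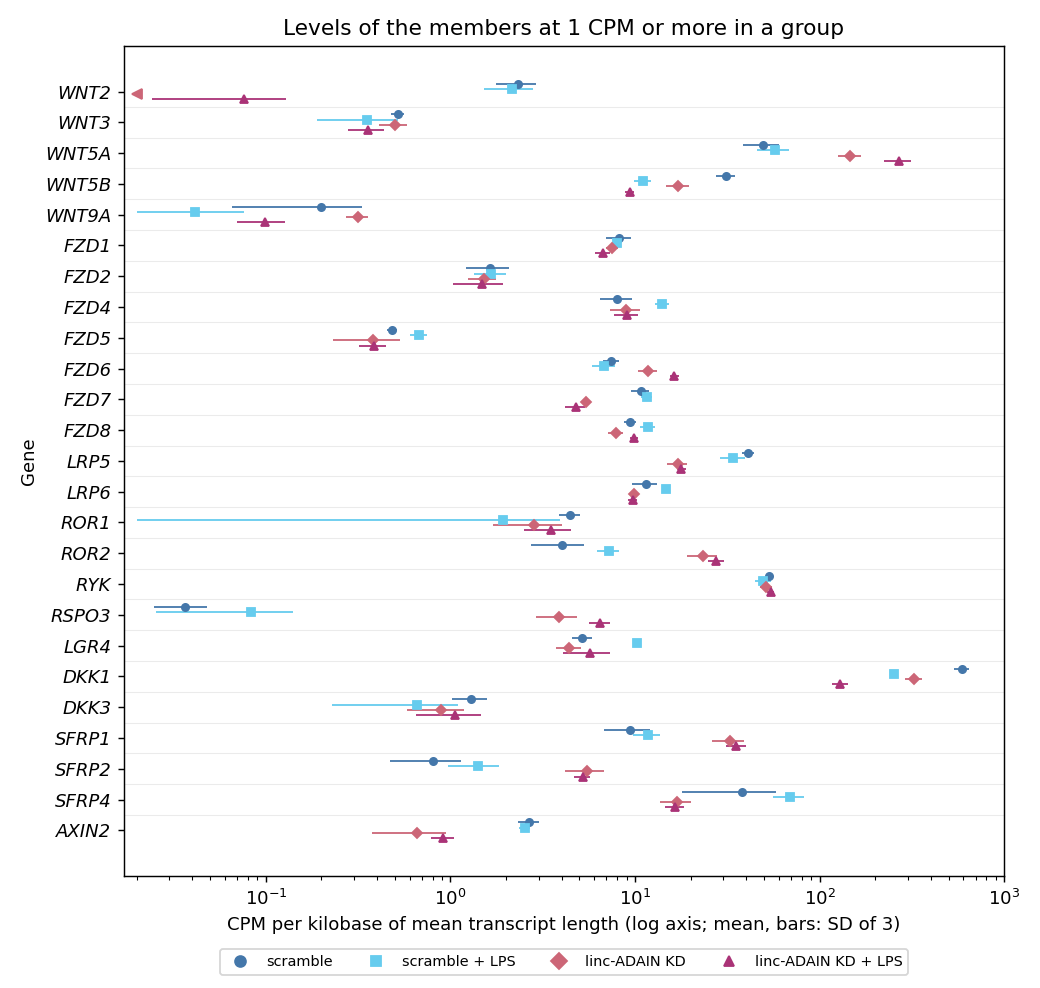
Mean CPM per kilobase of mean transcript length (horizontal log axis; bars, SD of 3 libraries) for the 25 members with a mean of at least 1 CPM in a group, by role from ligands at the top to AXIN2 at the bottom; a triangle at the left edge marks a mean under the axis, and bars are cut at that edge. DKK1 lies highest in scramble control, at 590.3 CPM per kilobase, and WNT2 in linc-ADAIN KD without LPS falls off the axis.

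Among the ligands, 7 of 19 had fewer than 10 counts in all. WNT3A, WNT6, WNT8A and WNT8B had 0 counts in every library, and WNT7A, WNT10A and WNT16 had 5, 2 and 5 counts over all 12. The antagonists DKK4 (5 counts), SFRP5 (1 count) and WIF1 (0 counts) were likewise not tested. Of the tested members, 13 had 10 to 100 counts in total (WNT1, WNT4, WNT7B, WNT9B, WNT11, FZD9, FZD10, RSPO1, RSPO2, RSPO4, LGR5, LGR6 and DKK2), and of these DKK2 was called in a comparison. For the others, changes of moderate size were not detectable at this depth.

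Without LPS, 14 of 42 members were called between linc-ADAIN KD and scramble control. Of these, 7 (16.7%) were higher, against 11.2% of all genes tested, and 7 (16.7%) were lower, against 14.3% of all genes. A change of at least 2-fold was found in 10 members (23.8%), against 7.26% of all genes. With LPS, 17 members were called. Of these, 7 (16.7%) were higher, against 12.7% of all genes, and 10 (23.8%) lower, against 14.1%, while 11 (26.2%) changed at least 2-fold, against 8.3%. The median log2 fold change over the members was -0.13 without LPS and -0.20 with LPS, beside 0.01 and 0.02 over all genes. With members that lacked counts in a group set at the bound that 3 counts allow, and those at or under it in both groups left out, it was -0.13 over 38 members and -0.07 over 39. A call was made in both KD comparisons for 13 members, against 18.5% of all genes, and all 13 moved in the same direction, as did 99.3% of all genes called in both. Levels were higher for WNT5A, FZD6, ROR2, RSPO3, DKK2, SFRP1 and SFRP2, and lower for WNT2, FZD7, LRP5, DKK1, SFRP4 and AXIN2. WNT5B was called without LPS and not with it, and FZD4, FZD5, LRP6 and LGR4 with LPS and not without it.

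**Figure D2:**
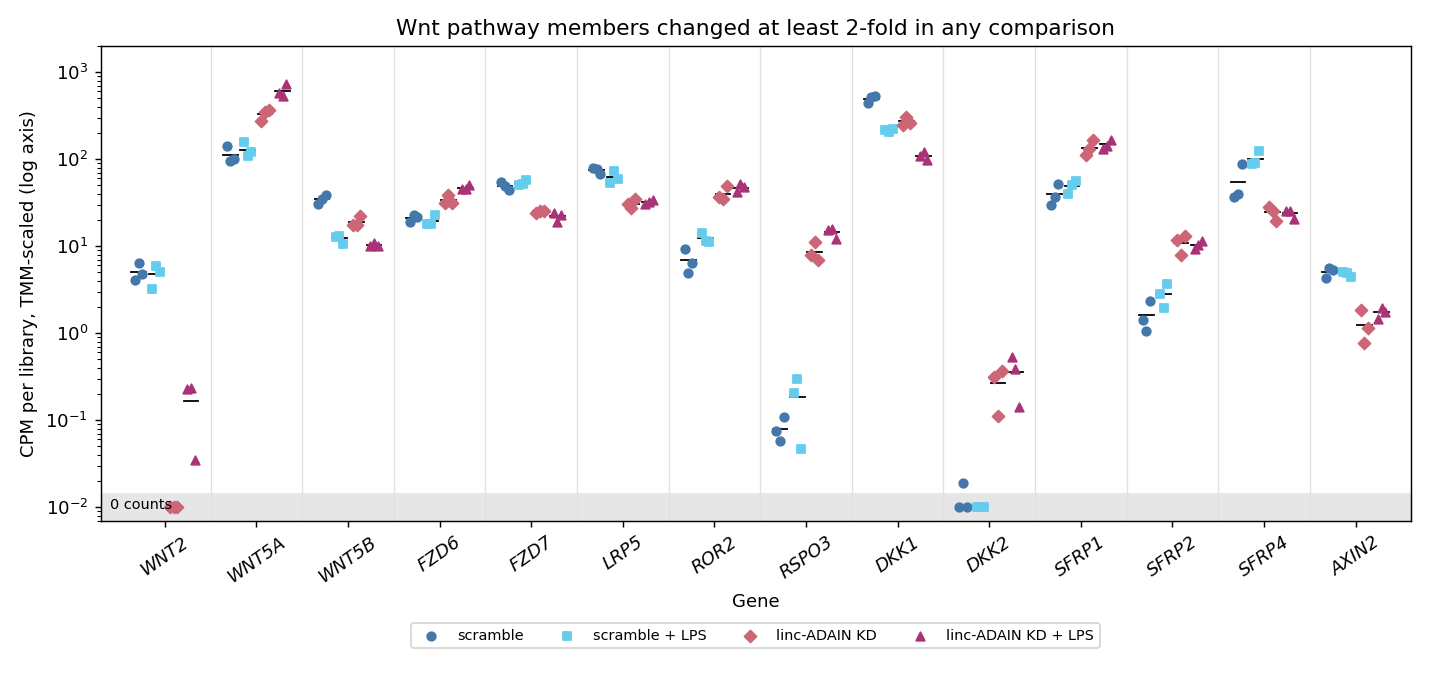
CPM in each of the 12 libraries (log axis) for the 14 members called with a change of 2-fold or more in any comparison; symbols and colours mark the 4 groups, short lines their means, and the grey band holds libraries with 0 counts. RSPO3 and ROR2 lie higher and WNT2 and AXIN2 lower in all 6 KD libraries than in all 6 scramble libraries.

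Of the ligands, WNT2, which is known to signal through β-catenin, was not detected in KD without LPS. Its gene lies on chromosome 7 of GRCh38 between 117275451 and 117323152 on the minus strand. WNT2 was at 4.08, 6.45 and 4.73 CPM in the scramble libraries (215, 339 and 220 counts) and had 0 counts in all 3 KD libraries, which makes it at least 70.6-fold lower when KD is set at 3 counts per library (adjusted p = 5.42e-08). With LPS it was at 3.20, 5.98 and 4.99 CPM in scramble control and had 8, 11 and 1 counts in KD, or 0.226, 0.237 and 0.0352 CPM. The groups did not overlap, and WNT2 was 26.5-fold lower in KD with LPS (log2 fold change -4.73, standard error (SE) 0.48, adjusted p = 1.31e-06).

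WNT5A (chromosome 3, 55465715 to 55490539, minus strand) moved the other way. It was at 140, 95.7 and 99.0 CPM in the scramble libraries and 277, 350.0 and 368 CPM in KD, a 2.97-fold higher level (log2 fold change 1.57, SE 0.16, adjusted p = 6.86e-07). With LPS the scramble libraries were at 158, 109 and 120 CPM and the KD libraries at 575, 525 and 721 CPM, 4.70-fold higher (log2 fold change 2.23, SE 0.16, adjusted p = 7.10e-09). In both settings the lowest KD library exceeded the highest scramble library.

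WNT5B was at 30.2, 35.1 and 38.4 CPM in scramble control and 17.4, 17.7 and 22.2 CPM in KD without LPS, 1.81-fold lower with no overlap (log2 fold change -0.86, SE 0.13, adjusted p = 5.80e-05). With LPS the groups overlapped, at 12.9, 13.2 and 10.7 CPM in scramble control and 10.04, 10.97 and 10.09 CPM in KD (adjusted p = 0.215). The 2 ligands together made up most of the summed ligand level per kilobase, and their balance shifted. WNT5A held 53.2% to 66.9% of that sum in the scramble libraries and 87.8% to 90.0% in KD, and with LPS 75.3% to 83.1% in scramble control and 95.5% to 96.9% in KD. Per kilobase of the longest transcript instead, WNT5A held 45.9% to 59.9% in scramble control and 84.1% to 86.8% in KD without LPS. The remaining 9 tested ligands were not called in either KD comparison. WNT3, a β-catenin ligand, averaged 1.10 ± 0.0879 CPM in the scramble libraries and 1.06 ± 0.183 CPM in KD, and WNT2B, a relative of WNT2, 0.371 ± 0.19 and 0.83 ± 0.38 CPM (adjusted p = 0.96 and 0.191; SD, n = 3 each). WNT10B, a ligand known to restrain adipocyte differentiation, was at 0.456, 1.01 and 0.816 CPM in scramble control and 0.0288, 0.464 and 0.148 CPM in KD without LPS (adjusted p = 0.203). After LPS it was at 0.869, 0.330 and 0.797 CPM in scramble control and 0, 0.194 and 0.0703 CPM in KD (adjusted p = 0.0549).

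**Figure D3:**
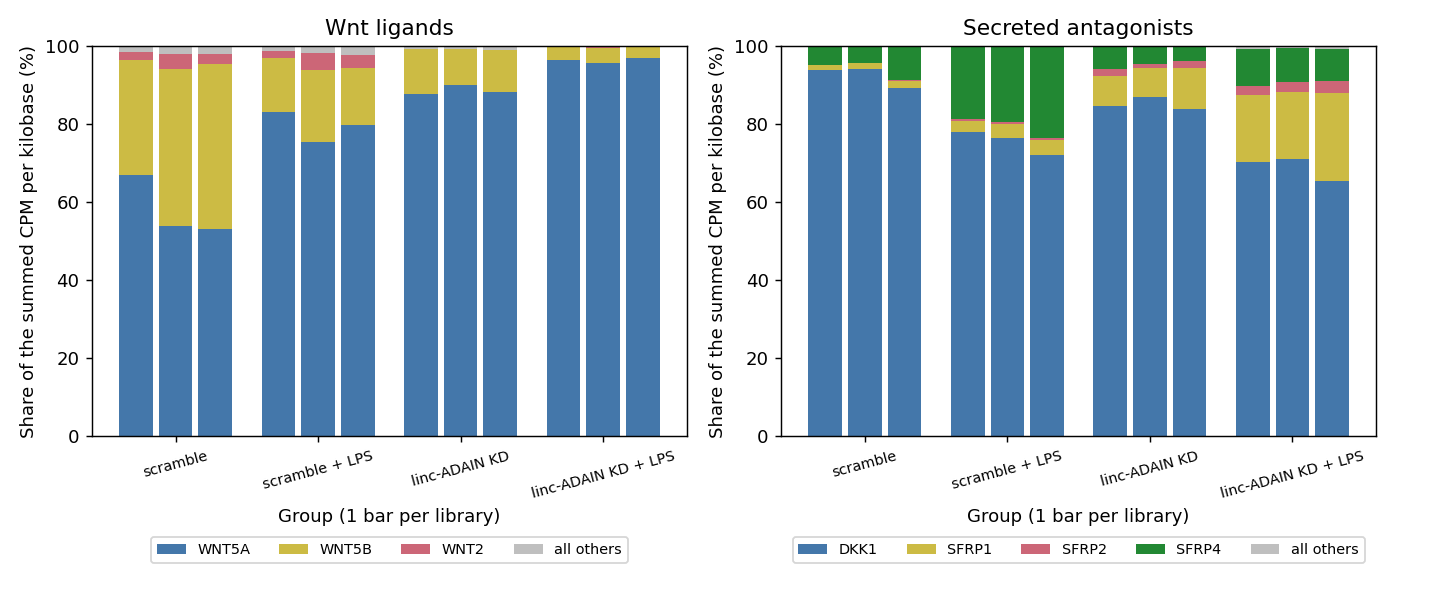
Share of each member in the summed CPM per kilobase of the Wnt ligands (left) and of the secreted antagonists (right), as 1 stacked bar of 100% for each of the 12 libraries in the 4 groups. WNT5A takes 53.2% to 66.9% of the ligand sum in scramble control and 95.5% to 96.9% in KD with LPS, and DKK1 takes the largest share of the antagonist sum in every library.

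All 10 Frizzled receptors were tested, and the changes among them went in both directions. FZD6, a receptor tied to planar cell polarity, was at 18.9, 22.9 and 21.9 CPM in scramble control and 31.3, 38.5 and 31.3 CPM in KD, 1.59-fold higher (log2 fold change 0.67, SE 0.12, adjusted p = 0.000365). Under LPS it was at 17.8, 17.9 and 22.8 CPM in scramble control and 45.0, 45.5 and 49.9 CPM in KD, 2.39-fold higher (adjusted p = 2.69e-07). The KD libraries stood above the scramble libraries in both settings.

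FZD7, a receptor often found on stem and progenitor cells, was lower in KD. It was at 55.0, 48.9 and 43.96 CPM in scramble control and 23.9, 25.7 and 25.5 CPM in KD, 1.97-fold lower (log2 fold change -0.98, SE 0.11, adjusted p = 1.61e-06). With LPS the values were 50.2, 51.7 and 57.3 CPM against 24.3, 19.0 and 22.6 CPM, 2.42-fold lower (adjusted p = 5.00e-08), again with no overlap. Of the summed Frizzled level per kilobase, FZD7 held 21.6% to 24.1% in scramble control and 11.8% to 13.5% in KD without LPS, whereas FZD6 held 13.3% to 18.1% and 25.8% to 28.3%.

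FZD4 and FZD5 were called with LPS and not without it. FZD4 was at 104 ± 8.86 CPM in scramble control with LPS and 66.8 ± 9.58 CPM in KD with LPS (adjusted p = 0.0026), and at 59.3 ± 11.7 and 66.3 ± 11.98 CPM without LPS (adjusted p = 0.463; SD, n = 3 each). FZD5, at 4.76 ± 0.509 and 2.70 ± 0.456 CPM with LPS (adjusted p = 0.0366), lost its call without replicate 1 or 3 of scramble control with LPS or without any replicate of KD with LPS, and when scaled by library size only (adjusted p = 0.0595), and its adjusted p reached 0.128 over all alternatives. FZD1, FZD2 and FZD8 were not called in either KD comparison, with log2 fold changes between -0.26 and -0.12. FZD1 averaged 56.7 ± 8.50, FZD8 38.2 ± 3.05 and FZD2 6.19 ± 1.62 CPM in scramble control, and FZD9 and FZD10 stayed under 1 CPM in every group and were not called. FZD3 had 15, 10 and 13 counts in scramble control and 30, 46 and 42 counts in KD without LPS and was not called (adjusted p = 0.095).

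The co-receptors of β-catenin signalling were lower in KD where they were called. LRP5 was at 78.2, 77.2 and 68.3 CPM in scramble control and 30.3, 27.3 and 35.01 CPM in KD, 2.42-fold lower (log2 fold change -1.27, SE 0.11, adjusted p = 1.38e-07). With LPS it was at 53.5, 72.5 and 59.3 CPM against 30.3, 32.6 and 33.9 CPM, 1.91-fold lower (adjusted p = 4.90e-06). Every KD library was below every scramble library. LRP6 was at 40.6 ± 6.31 CPM in the scramble libraries and 34.95 ± 1.69 CPM in KD without LPS (adjusted p = 0.141), and with LPS at 52.7 ± 2.23 and 34.5 ± 2.03 CPM, 1.53-fold lower (adjusted p = 0.000181).

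ROR2, a receptor tyrosine kinase that binds WNT5A, was also higher in KD. ROR2 was at 9.28, 4.91 and 6.45 CPM in scramble control and 36.3, 35.3 and 48.8 CPM in KD, 5.83-fold higher (log2 fold change 2.54, SE 0.19, adjusted p = 1.23e-08). After LPS it was at 14.2, 11.5 and 11.3 CPM in scramble control and 42.3, 51.7 and 47.5 CPM in KD, 3.83-fold higher (log2 fold change 1.94, SE 0.18, adjusted p = 2.22e-07). The lowest KD library was well above the highest scramble library in both settings. RYK was at 97.4 ± 1.29 CPM in the scramble libraries and 94.1 ± 6.70 CPM in KD, a log2 fold change of -0.05 (SE 0.08, adjusted p = 0.726).

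ROR1, the paralog of ROR2, had 1 library with LPS apart from the others and is described because of it. Its levels were 15.4, 12.4 and 12.4 CPM in scramble control, 2.30, 12.8 and 2.32 CPM in scramble control with LPS, 5.59, 7.85 and 12.4 CPM in KD and 13.6, 7.51 and 10.7 CPM in KD with LPS. It was not called in any comparison. With no filter on low counts and all 12 libraries kept, the difference with LPS in scramble control was called (log2 fold change -1.23, adjusted p = 0.00936). Without replicate 2 of scramble control with LPS, ROR1 was lower with LPS in scramble control (log2 fold change -2.53, adjusted p = 3.74e-05) and higher in KD with LPS (log2 fold change 2.20, adjusted p = 5.19e-05).

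RSPO3, a secreted enhancer of Wnt signalling, had the largest fold change among members with counts in both groups. Its gene is on chromosome 6 between 127118671 and 127199481 on the plus strand. The scramble libraries held 4, 3 and 5 counts (0.0759, 0.0571 and 0.107 CPM) and the KD libraries 272, 593 and 280 counts (7.84, 11.01 and 6.91 CPM), a log2 fold change of 6.71 (SE 0.40, adjusted p = 7.44e-10). With LPS there were 8, 9 and 2 counts in scramble control and 543, 722 and 346 counts in KD, a log2 fold change of 6.35 (SE 0.38, adjusted p = 4.64e-10). RSPO3 was thus near the limit of detection in all 6 scramble libraries and present in all 6 KD libraries. RSPO1, RSPO2 and RSPO4 stayed under 1 CPM in every group and were not called.

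The R-spondin receptor LGR4 was at 10.9 ± 1.36 CPM in the scramble libraries and 9.23 ± 1.40 CPM in KD without LPS (adjusted p = 0.361). Under LPS it was at 21.7, 22.1 and 20.9 CPM in scramble control and 15.9, 10.8 and 9.28 CPM in KD, 1.80-fold lower with no overlap (adjusted p = 0.00125). LGR5, a stem cell marker in several epithelia, had 0 counts in all 6 scramble libraries, 0, 8 and 0 counts in KD and 9, 14 and 2 counts in KD with LPS, and was not called (adjusted p = 0.189 without and 0.0883 with LPS). LGR6 had 10 counts in 1 KD library, 1 in another library and 0 in the rest.

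Of the 7 secreted antagonists tested, 5 were called in each KD comparison, 3 higher and 2 lower in both, where 25.5% of all genes were called without LPS and 26.9% with LPS. DKK1 (chromosome 10, 52314281 to 52318042, plus strand) was at 439, 520.4 and 528 CPM in scramble control and 249, 304 and 263 CPM in KD, 1.82-fold lower (log2 fold change -0.87, SE 0.09, adjusted p = 1.47e-06). With LPS it was at 217, 204 and 220.4 CPM in scramble control and 110, 120 and 97.6 CPM in KD, 1.96-fold lower (log2 fold change -0.97, SE 0.10, adjusted p = 3.12e-07). The groups did not overlap in either setting. DKK2, which can act for or against Wnt signalling depending on its partners, had 0, 1 and 0 counts in scramble control and 11, 6 and 15 counts in KD, a ratio of 37.6 with a 95% counting interval of 6.29 to 1532 (adjusted p = 0.035). The interval covers counting error only, and the call was lost without replicate 1 or 3 of scramble control, 1 or 3 of KD, or 1 or 2 of KD with LPS, and in a fit of the 6 libraries alone (adjusted p up to 0.116 over all alternatives). With LPS, DKK2 had 0 counts in scramble control and 19, 18 and 4 counts in KD, at least 4.33-fold higher (adjusted p = 0.0113).

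SFRP1 and SFRP2, which bind Wnt ligands through a Frizzled-like domain, were higher in KD. SFRP1 was at 30.0, 36.8 and 51.2 CPM in scramble control and 112, 131 and 164 CPM in KD, 3.46-fold higher (log2 fold change 1.79, SE 0.17, adjusted p = 3.51e-07). After LPS it was at 40.2, 50.5 and 56.2 CPM against 132, 143 and 168 CPM, 3.01-fold higher (adjusted p = 1.13e-06). All KD libraries exceeded all scramble libraries.

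SFRP2 was at 1.41, 1.07 and 2.36 CPM in scramble control and 11.8, 7.98 and 13.0 CPM in KD, 6.78-fold higher (log2 fold change 2.76, SE 0.29, adjusted p = 1.09e-06). Under LPS it was at 2.81, 1.95 and 3.68 CPM against 9.39, 10.3 and 11.5 CPM, 3.67-fold higher (adjusted p = 5.43e-05). SFRP4, of the same family, went the other way. It was at 37.1, 39.2 and 88.3 CPM in scramble control and 28.5, 25.6 and 19.3 CPM in KD, 2.24-fold lower (log2 fold change -1.16, SE 0.25, adjusted p = 0.00165), with 1 scramble library well above the other two. With single libraries left out the log2 fold change of SFRP4 ran from -1.38 to -0.64. The call held, but the change was not at least 2-fold in every such fit. With LPS it was at 89.0, 89.4 and 123 CPM in scramble control and 25.4, 25.4 and 20.6 CPM in KD, 4.22-fold lower (log2 fold change -2.08, SE 0.25, adjusted p = 4.90e-06). DKK1 held 89.3% to 94.2% of the summed antagonist level per kilobase in scramble control, 83.8% to 86.9% in KD, 72.1% to 77.9% in scramble control with LPS and 65.3% to 71.0% in KD with LPS. SFRP1 held 7.53% to 10.5% in KD and 17.0% to 22.6% in KD with LPS. These shares depend on the length used. Per kilobase of the longest transcript instead, DKK1 held 51.6% to 58.8% and SFRP1 28.3% to 35.8% in KD with LPS. DKK3 averaged 1.99 ± 0.421 CPM in the scramble libraries and 1.36 ± 0.461 CPM in KD, and FRZB, another Wnt-binding protein, 0.189 ± 0.0661 and 0.233 ± 0.248 CPM, and neither was called.

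AXIN2, an inhibitor inside the cell that is itself switched on by β-catenin and is commonly read as a sign of that signalling, was lower in KD. It was at 4.29, 5.55 and 5.35 CPM in scramble control and 1.84, 0.780 and 1.14 CPM in KD, 4.08-fold lower (log2 fold change -2.03, SE 0.30, adjusted p = 5.08e-05). After LPS it was at 5.04, 4.92 and 4.38 CPM in scramble control and 1.47, 1.96 and 1.76 CPM in KD, 2.76-fold lower (log2 fold change -1.46, SE 0.30, adjusted p = 0.00095). The highest KD library was below the lowest scramble library in both comparisons.

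**Figure D4:**
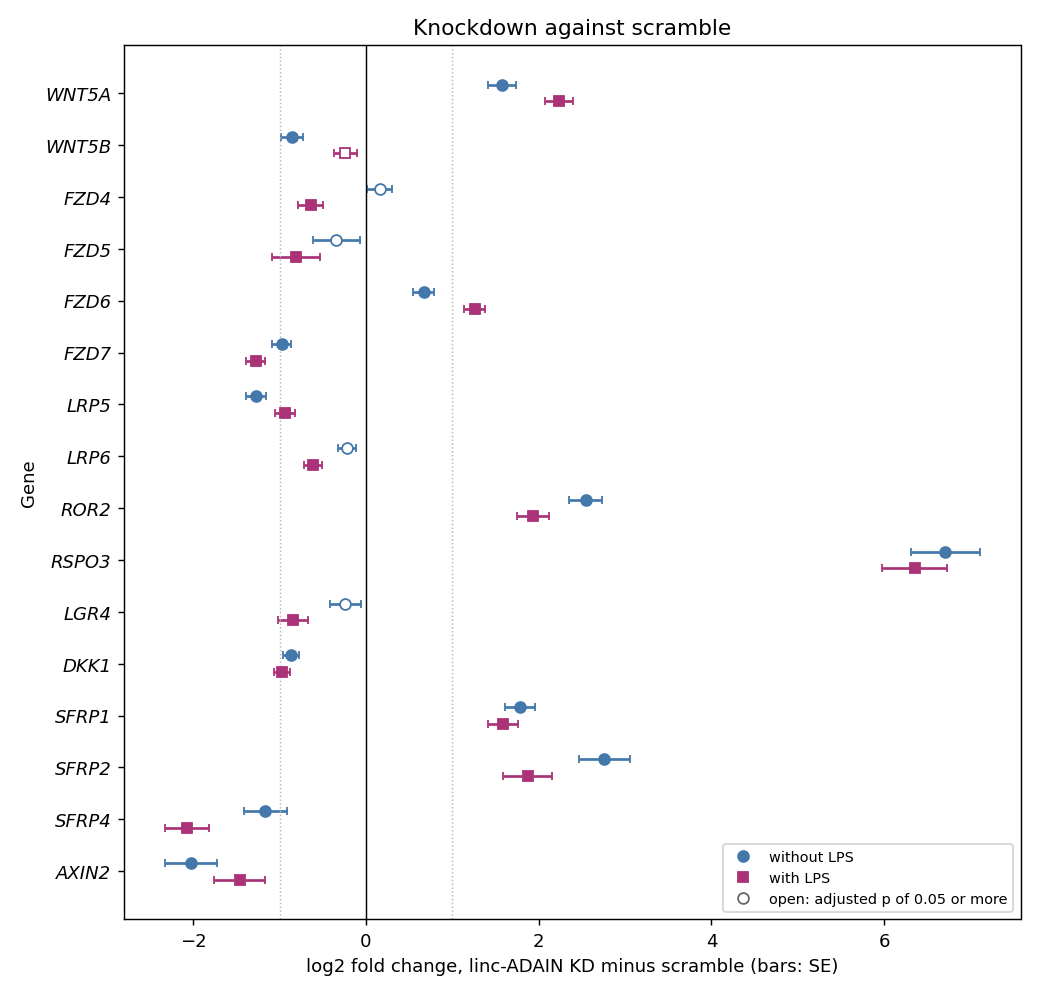
Log2 fold change of linc-ADAIN KD against scramble control, without LPS (circles) and with LPS (squares), with SE bars, for the 16 members called in either comparison with enough counts in both groups; open symbols have an adjusted p of 0.05 or more and dotted lines mark 2-fold. RSPO3 lies farthest right, at 6.71 and 6.35, and SFRP4 and AXIN2 farthest left, at -2.08 with LPS and -2.03 without LPS; WNT2 and DKK2 are left out because a group had almost no counts.

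The bases before the start site are shown for DKK1, the member with the highest level in scramble control, and for RSPO3, WNT2 and ROR2, whose KD changes were large. They come from RefSeq on GRCh38.p14, which held 41 windows for 36 of the 52 members. Each runs 5′ to 3′ on the gene's own strand over the 250 bases before the RefSeq start. Capitals mark the TCF/LEF core (CTTTGAA or CTTTGAT on either strand), the TATA box (TATAAA on the gene's strand) and the CCAAT box (CCAAT on either strand, so that ATTGG is its reverse). The windows are chr10:52314031-52314280 on the plus strand for DKK1, chr6:127118421-127118670 on the plus strand for RSPO3, chr7:117323059-117323308 on the minus strand for WNT2 and chr9:91950229-91950478 on the minus strand for ROR2. The WNT2 gene span given above, from another annotation, ends at 117323152. The bases of the WNT2 window next to its RefSeq start thus lie inside that span.
DKK1: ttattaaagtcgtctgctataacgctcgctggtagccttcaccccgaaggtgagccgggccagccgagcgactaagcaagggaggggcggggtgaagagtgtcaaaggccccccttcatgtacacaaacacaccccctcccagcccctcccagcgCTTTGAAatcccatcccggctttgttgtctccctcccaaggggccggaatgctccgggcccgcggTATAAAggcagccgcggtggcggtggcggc
RSPO3: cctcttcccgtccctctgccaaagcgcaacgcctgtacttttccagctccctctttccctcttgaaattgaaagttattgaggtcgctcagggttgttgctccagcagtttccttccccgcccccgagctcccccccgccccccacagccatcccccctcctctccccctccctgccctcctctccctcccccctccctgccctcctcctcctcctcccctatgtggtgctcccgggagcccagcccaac
WNT2: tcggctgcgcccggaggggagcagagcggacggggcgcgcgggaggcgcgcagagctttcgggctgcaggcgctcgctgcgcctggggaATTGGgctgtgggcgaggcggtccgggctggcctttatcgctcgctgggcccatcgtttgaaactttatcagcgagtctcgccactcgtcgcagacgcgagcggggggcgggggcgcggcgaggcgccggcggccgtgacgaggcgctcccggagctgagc
ROR2: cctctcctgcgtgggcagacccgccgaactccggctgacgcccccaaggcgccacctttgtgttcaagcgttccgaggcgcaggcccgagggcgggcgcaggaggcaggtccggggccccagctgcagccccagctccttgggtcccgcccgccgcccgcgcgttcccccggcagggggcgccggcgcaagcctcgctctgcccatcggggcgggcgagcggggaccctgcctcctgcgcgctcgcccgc

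In the DKK1 window the TCF/LEF core begins at -95 and the TATA box at -30, counted from the start site. The TCF/LEF core was found in 1 of the 41 windows of members (2.4%), that of DKK1, and in 2086 of the 35116 windows in the table (5.9%). The TATA box stood in 2 member windows (4.9%) and in 6.8% of all, and the CCAAT box in 16 (39.0%) and in 32.0% of all. The median GC content was 69.2% over the member windows and 58.0% over all windows, with a median of 23 and 11 CpG dinucleotides. The RSPO3 window, with 8 CpG, is poorer in them than those of WNT2, with 38, and ROR2, with 32. A match in these windows is a description of letters and says nothing of binding.

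Fewer members were called for LPS than for KD, as was so over all genes. Of all genes, 13.4% were called for LPS in scramble control and 11.8% in KD. For KD it was 25.5% without LPS and 26.9% with LPS. In scramble control, 8 of 42 members were called, 6 higher (14.3%, against 5.27% of all genes) and 2 lower (4.76%, against 8.11%), with 2 changed at least 2-fold (4.76%, against 2.49%). In KD, 6 members were called, 4 higher (9.52%, against 5.21%) and 2 lower (4.76%, against 6.59%), with 2 changed at least 2-fold (4.76%, against 2.21%). The median log2 fold change over the members was 0.01 in both, beside 0 and 0.00 over all genes. With sparse members at their bounds it was 0.06 over 38 members in scramble control and 0.08 over 37 in KD. DKK1, WNT5B and FZD8, or 7.14% of the members, were called in both comparisons, against 6.88% of all genes, each in the same direction.

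DKK1 and WNT5B fell with LPS. The DKK1 values given above correspond to 2.32-fold lower with LPS in scramble control (log2 fold change -1.22, SE 0.10, adjusted p = 6.39e-08) and 2.50-fold lower in KD (log2 fold change -1.32, SE 0.10, adjusted p = 2.33e-08). In both backgrounds all LPS libraries were below all libraries without LPS. DKK1 was thus lower in KD and lower with LPS, and KD with LPS was the lowest group, 109 ± 11.01 CPM against 496 ± 49.1 CPM in scramble control without LPS (SD, n = 3 each). WNT5B was 2.82-fold lower with LPS in scramble control (log2 fold change -1.50, SE 0.13, adjusted p = 2.73e-07) and 1.84-fold lower in KD (log2 fold change -0.88, SE 0.13, adjusted p = 0.000158).

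The members that rose with LPS in scramble control were receptors, LGR4 and the antagonist SFRP4. LGR4 was 1.98-fold higher (log2 fold change 0.99, SE 0.18, adjusted p = 0.000715), ROR2 was 1.79-fold higher (adjusted p = 0.00495), FZD4 was 1.75-fold higher (adjusted p = 0.00078) and SFRP4 was 1.83-fold higher (adjusted p = 0.0214). LRP6 was 1.30-fold (adjusted p = 0.0194) and FZD8 1.24-fold higher (adjusted p = 0.0436). These 6 were higher in all 3 LPS libraries than in all 3 without LPS. They were picked by their calls in these same libraries, so the separation is no further support. The LPS libraries of scramble control are also the reference of the KD comparison with LPS, in which FZD4, LRP6, LGR4 and SFRP4 were lower, so the 2 sets of values share those 3 libraries. The LRP6 call was lost without replicate 2 or 3 of scramble control or 3 of scramble control with LPS, and that of SFRP4 without replicate 1 or 2 of scramble control or 3 with LPS. The SFRP4 call was also lost with DESeq2 (adjusted p = 0.0623) and in a fit of these 6 libraries alone (adjusted p = 0.0523). FZD8 lost its call without replicate 2 or 3 of scramble control, 2 or 3 with LPS, or 3 of KD with LPS, and when scaled by library size only (adjusted p = 0.0765). Over all alternatives the adjusted p reached 0.137 for LRP6, 0.125 for SFRP4 and 0.163 for FZD8. Without replicate 2 of scramble control, 5 members were called in this comparison in place of 8.

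In KD, WNT5A was 1.83-fold higher with LPS (log2 fold change 0.87, SE 0.16, adjusted p = 0.000882) with no overlap between groups, and in scramble control its log2 fold change was 0.21 (SE 0.16, adjusted p = 0.469). FZD6 was 1.39-fold higher (adjusted p = 0.0127) and FZD8 1.25-fold higher (adjusted p = 0.0431) in KD with LPS. WNT2 went from 0 counts in the 3 KD libraries to 8, 11 and 1 counts, at least 2.30-fold higher (adjusted p = 0.0022), a level still far under that of every scramble library. The FZD6 call was lost without replicate 1 or 3 of KD or 3 of KD with LPS (adjusted p up to 0.0666). That of FZD8 was lost without replicate 2 of scramble control, 3 of scramble control with LPS, 1 or 3 of KD, or any replicate of KD with LPS (adjusted p up to 0.176), with library size only (adjusted p = 0.11) and in a fit of the 6 KD libraries alone (adjusted p = 0.064), and the WNT2 call was lost in a fit of the 6 KD libraries alone (adjusted p = 0.173).

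**Figure D5:**
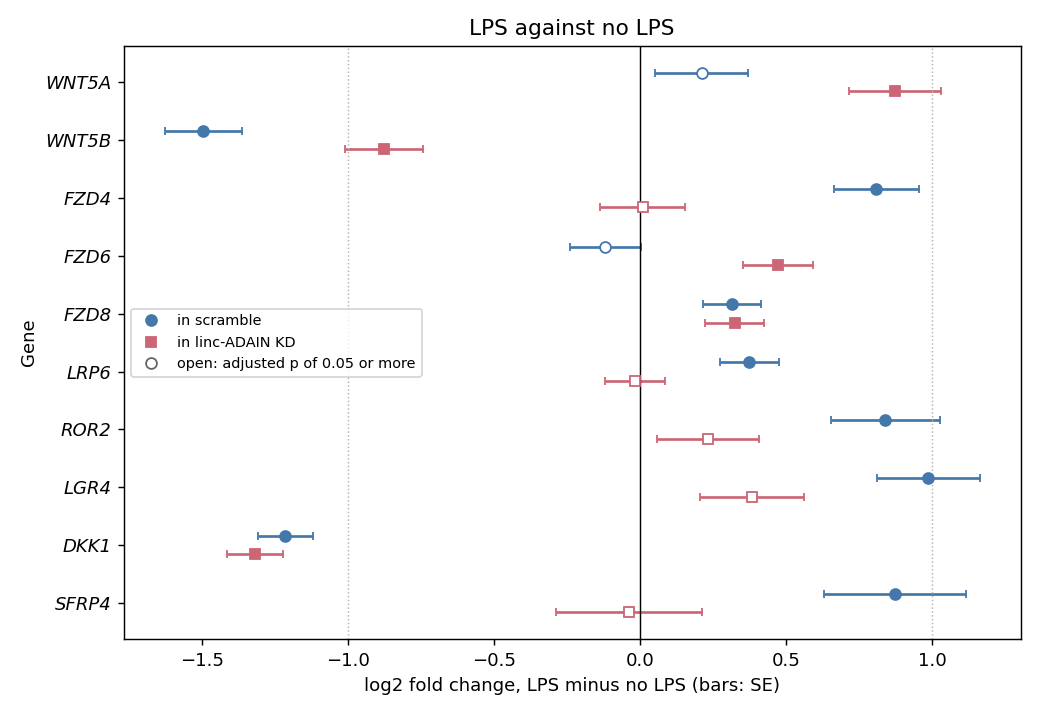
Log2 fold change of LPS against no LPS in scramble control (circles) and in linc-ADAIN KD (squares), with SE bars, for the 10 members called in either comparison with enough counts; open symbols have an adjusted p of 0.05 or more and dotted lines mark 2-fold. DKK1 lies at -1.22 and -1.32 and WNT5B at -1.50 and -0.88, left of 0 in both backgrounds.

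Whether the KD change itself differed with and without LPS was tested by the interaction. One member, or 1 of 42, was called, against 1.28% of all genes, and 12 members (28.6%) had an unadjusted p under 0.05, against 11.1% of all genes. That member was WNT2, whose fitted difference of 6.01 on the log2 scale (SE 1.23, adjusted p = 0.0228) comes from a group with 0 counts, so its size depends on the small prior count of the fit and is no bound. The call was lost without any 1 of 5 libraries (replicate 2 of scramble control, replicates 1 and 2 of KD and replicates 1 and 2 of KD with LPS), with adjusted p up to 0.0774. FZD4 came next, at -0.80 (SE 0.20, adjusted p = 0.0698). It passed the threshold with DESeq2 (adjusted p = 0.00908), with no filter on low counts (adjusted p = 0.00292), and without replicate 3 of scramble control (adjusted p = 0.0366), 3 of KD (adjusted p = 0.016) or 1 of KD with LPS (adjusted p = 0.0421). FZD6 followed at 0.59 (SE 0.17, adjusted p = 0.116), and passed with DESeq2 (adjusted p = 0.0493) and without replicate 3 of scramble control with LPS (adjusted p = 0.0487). Next were WNT5B at 0.62 (SE 0.19, adjusted p = 0.135) and WNT5A at 0.66 (SE 0.22, adjusted p = 0.20), of which WNT5A passed with no filter (adjusted p = 0.0268). SFRP4, at -0.91 (SE 0.35, adjusted p = 0.293), passed the threshold without replicate 3 of scramble control, its high library (-1.44, adjusted p = 0.00226), and with no filter (adjusted p = 0.0362). ROR1, at 1.53 (SE 0.66, adjusted p = 0.383), passed without replicate 2 of scramble control with LPS (2.83, adjusted p = 0.0018). A test of any difference among the 4 groups called 19 of 42 members, against 40.8% of all genes. WNT9A was among these 19 although no single comparison called it, with 1.22, 0.989 and 0.193 CPM in scramble control, 0.0256, 0.165 and 0.305 CPM with LPS, 1.10, 1.26 and 1.43 CPM in KD and 0.311, 0.344 and 0.527 CPM in KD with LPS.

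Other genes of the pathway were counted from 5 lists, to be read against the 11.2% higher and 14.3% lower of all genes without LPS and the 12.7% and 14.1% with LPS. Of 13 genes of Wnt secretion and extracellular processing tested, 5 were higher and 1 lower in KD both without and with LPS, with median log2 fold changes of 0.25 and 0.60. CTHRC1, a secreted protein that promotes binding of Wnt to its non-canonical receptors, was at 40.6, 49.2 and 49.8 CPM in scramble control and 95.4, 94.3 and 101 CPM in KD, 2.08-fold higher (adjusted p = 1.34e-07), and 3.19-fold higher with LPS (adjusted p = 3.39e-10). TRABD2A, a membrane protease that inactivates Wnt proteins, was 2.10-fold lower without LPS (adjusted p = 2.61e-07) and 2.66-fold lower with LPS (adjusted p = 6.04e-09). WLS, the carrier of Wnt proteins to the cell surface, was at 138 ± 6.91 CPM in the scramble libraries and 165 ± 2.69 CPM in KD (adjusted p = 0.0111).

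Of 22 tested genes of the destruction complex and signal transducers, 3 were higher and 4 lower in KD without LPS, and 4 higher and 2 lower with LPS, with medians of -0.08 and 0.04. CTNNB1, which encodes β-catenin, was at 365 ± 40.7 CPM in the scramble libraries and 462 ± 16.7 CPM in KD (log2 fold change 0.34, adjusted p = 0.00318), and with LPS at 504 ± 31.1 and 551 ± 7.598 CPM (adjusted p = 0.259). CXXC5, a negative regulator that binds Dishevelled, was 2.52-fold lower without LPS (adjusted p = 1.76e-09) and 2.51-fold lower with LPS (adjusted p = 1.33e-09). Of 17 genes of the TCF/LEF complex, 0 were higher, 4 were lower without LPS and 5 were lower with LPS, with medians of -0.05 and -0.26 (-0.28 with LPS when sparse genes are at their bounds). The co-repressor TLE2 was at 18.9, 20.6 and 15.8 CPM in scramble control and 5.01, 6.39 and 7.09 CPM in KD, 2.99-fold lower (adjusted p = 8.93e-07). TCF7L1, a TCF factor that mostly represses, was 3.31-fold lower without LPS (adjusted p = 0.00111). With LPS its fall was smaller by 1.17 on the log2 scale, a difference that was not called (SE 0.49, interaction adjusted p = 0.364). Changes of at least 2-fold were called for 2 genes of this complex without LPS and 1 with LPS. TCF7, an activating TCF factor, fell with LPS, 3.76-fold in scramble control (adjusted p = 7.13e-06) and 3.51-fold in KD (adjusted p = 1.84e-05).

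Commonly used targets of β-catenin did not move together in KD. Of 21 tested, 7 were higher and 4 lower without LPS and 8 higher and 4 lower with LPS, with medians of 0.33 and 0.03 (0.23 and 0.33 with sparse genes at their bounds). CCN4, a matricellular protein, was at 149, 115 and 163 CPM in scramble control and 320.0, 370.3 and 560.1 CPM in KD, 2.93-fold higher (adjusted p = 6.28e-06), and CCN5 of the same family was 2.08-fold higher (adjusted p = 0.000265). BMP4, a ligand that commits precursors to the adipocyte lineage, had 1, 0 and 1 counts in scramble control and 56, 15 and 23 counts in KD, a ratio of 55.3 with a 95% counting interval of 14.9 to 463 (adjusted p = 0.00106). EDN1, the vasoconstrictor endothelin, was at 1.46, 0.694 and 1.71 CPM in scramble control with LPS and 4.02, 4.02 and 6.68 CPM in KD with LPS, 3.76-fold higher (adjusted p = 0.000219). Without LPS its rise in KD was smaller by 1.54 on the log2 scale, a difference that was not called (SE 0.45, interaction adjusted p = 0.125). MSX1, a homeobox factor, was at 192 ± 13.1 CPM in the scramble libraries and 82.7 ± 7.91 CPM in KD, 2.32-fold lower (adjusted p = 4.91e-09). MYC, a growth regulator, was lower by a log2 fold change of -0.51 (adjusted p = 6.99e-05). NKD1, NOTUM and LEF1 were at means under 0.3 CPM in every group and were not called.

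Of 24 tested genes of planar cell polarity and other β-catenin-independent signalling, 7 were higher and 3 lower in KD without LPS and 6 higher and 2 lower with LPS, with medians of 0.07 and 0.01. NFATC2, a calcium-responsive transcription factor, was at 3.76, 3.54 and 5.48 CPM in scramble control and 19.5, 18.5 and 14.5 CPM in KD, 4.11-fold higher (log2 fold change 2.04, SE 0.28, adjusted p = 2.22e-05). The formins DAAM1 and DAAM2, which link Dishevelled to the cytoskeleton, were 2.00-fold (adjusted p = 3.28e-05) and 2.32-fold higher (adjusted p = 0.00051), and ROCK2, a kinase downstream of RhoA, was 2.05-fold lower (adjusted p = 5.58e-07). The members of these lists were chosen as textbook genes of the pathway.

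Of the marker lists for other cells, the summed level of 7 leukocyte genes was 52.8 to 58.7 CPM in the scramble libraries against 31.2 to 36.9 CPM in KD without LPS, and that of 5 endothelial genes 23.8 to 27.1 against 11.3 to 11.9 CPM. The leukocyte sum is almost all CD68 (790 to 2959 counts per library), and the other 6 genes had at most 117 counts. The leukocyte markers PTPRC (0 to 12 counts per library) and CD3E (0 counts) and the endothelial CDH5 (0 to 3 counts) were at or near 0. The sum of 4 smooth muscle and pericyte genes was 19.3 to 28.6 against 5.27 to 7.43 CPM, that of 4 proliferation genes 32.5 to 53.0 against 52.9 to 72.3 CPM, and that of 4 epithelial genes reached at most 1.24 CPM in any library. Of the 4 smooth muscle and pericyte genes, 1 was called in KD without LPS, as lower, and their median log2 fold change was 0.30. CNN1 had 22 to 1374 counts per library, whereas MYH11 had at most 32 and DES at most 17. The 9 adipose stromal genes summed to 3833 to 4303 against 3726 to 4427 CPM. This similar sum hides changes in both directions. Without LPS, 6 of the 8 stromal genes tested were called in KD, 3 as higher and 3 as lower. Changes of at least 2-fold were found for 1 that rose and 2 that fell. The part of these marker lists in the results was not tested.

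Several members share their place in the genome with another transcribed gene on the opposite strand: FZD4 with PRSS23 (4394 to 9083 counts per library), SFRP4 with EPDR1 (1488 to 4836 counts), WNT5B with FBXL14 (130 to 343 counts) and WNT2 with CFTR (1 to 92 counts, beside 0 to 339 for WNT2). DKK3, with 18 to 130 counts, shares its place with USP47, with 2152 to 4128. WNT2B, with 11 to 51 counts, shares its place with ST7L, with 406 to 1192, and LGR5, with 0 to 14, with TSPAN8, with 0 to 21. These are overlaps of whole gene spans, introns included, and shared exon sequence was not looked at. The library kit keeps strand, but whether the counting used it is not given in the sources used here. Reads of such pairs may thus not be told apart where their exons overlap. LRP5L, a partial copy of LRP5, had 6 to 77 counts per library against 963 to 4118 for LRP5.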

How the data were processed

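RNA-seq libraries of 12 samples in 4 groups were analysed. The authors demultiplexed reads with bcl2fastq 2.19, pseudoaligned them with kallisto 0.44.0 to human transcriptomes (GRCh38) and deposited estimated counts per gene name, unscaled and as whole numbers. The annotation release and the step that summed transcripts are not given in the sources used here. A row with no gene name (0.235% to 0.306% of a library's counts) was left out.

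Depth was 48.1 to 53.8 M counts per library in scramble control, 31.5 to 44.5 M in scramble control with LPS, 33.4 to 50.5 M in KD and 28.4 to 45.3 M in KD with LPS. In R 4.3.3, counts were rounded, genes with at least 10 counts over 12 libraries kept, and 1 model of 4 group means fitted by edgeR 4.0.16 (TMM scaling, quasi-likelihood F test, Benjamini-Hochberg adjustment over 17173 genes). The SE is the log2 fold change divided by the square root of F. Transcript lengths and gene positions are from GENCODE release 44 (GRCh38), and levels per kilobase divide CPM by the mean transcript length. A group at 0 was set at 3 counts per library, and a group with 1 to 3 counts in total was given as a ratio with an exact 95% binomial interval. The study's methods name DESeq2, run here as version 1.42.0 among 19 alternatives.

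The fit was tested on simulated counts with known changes. The share of 4-fold changes that this test had to recover was lowered after its first result fell just short for the interaction, with the fit unchanged.

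The members, lists and motifs were chosen with earlier results of these data known. Values per library are given for members called with a change of 2-fold or more, or called in the interaction. They are also given for LGR4 with LPS and for LGR6, which met neither condition. Other pathway genes named changed at least 2-fold in KD, up to 4 per list and comparison, and WLS, CTNNB1, MYC, TCF7, NKD1, NOTUM, LEF1, FABP4, ROR1, FZD3, LGR5, WNT9A and WNT10B were added after their values were seen. The printed promoters, the shares of summed levels, the medians at bounds and the uncalled interactions given were also chosen after the values were seen.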

Additional observations from a re-analysis of the deposited data

Results flagged for a closer look

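The KD change of WNT2 differed with and without LPS by 6.01 on the log2 scale (SE 1.23, adjusted p = 0.0228 from edgeR's interaction term). It was the one member whose KD effect differed between the backgrounds by this test. The size of this difference rests on a group with 0 counts and is no bound. The call was lost without any 1 of 5 libraries, with adjusted p up to 0.0774. WNT2 had 0 counts in the 3 KD libraries without LPS and 8, 11 and 1 counts in the KD libraries with LPS, and lay between 125 and 339 counts in every scramble library.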

How the results depend on the processing

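Of 46 calls on single members, 37 held in all 19 alternatives, 9 lost the threshold in at least 1, and 0 changed direction. The 9 were DKK2 in KD without LPS, FZD5 in KD with LPS, FZD8, LRP6 and SFRP4 with LPS in scramble control, WNT2, FZD6 and FZD8 with LPS in KD, and the WNT2 interaction. The interaction count of 1 became 3 with DESeq2, 4 with no filter on low counts and 2 with the replicate block, and was 0 to 3 with single libraries left out. For LPS in scramble control the count of 8 members was 5 to 10 with single libraries left out (5 without scramble replicate 2). Over all genes the interaction count of 219 became 475 with DESeq2 and 431 with no filter, and 92, 131, 136 and 116 without scramble replicate 2, KD replicate 1 and KD with LPS replicates 2 and 3. Library size in place of TMM moved the median of all genes in KD without LPS from 0.01 to 0.12, a shift of 0.11, and with it FZD5 in KD with LPS and FZD8 with LPS in both backgrounds lost their calls, while no call changed direction. Same-numbered libraries of different groups correlated at -0.17 to 0.27 in their deviations, over 0.1 in 5 of 18 pairs. They were highest with their own number in 7. Between groups without and with LPS the values were 0.27, 0.12 and 0.09 in scramble control and 0.12, -0.11 and 0.12 in KD. Whether the numbers mark pairs is thus not settled for the LPS comparisons, and the main fit does not pair them. With the block DKK2 in KD and FZD8 in scramble control were not called, and the FZD4 interaction was (adjusted p = 0.0369). Of the 10 highest members per kilobase, 9 stayed so with the longest transcript, but their order changed. In scramble control SFRP4 was then at 19.13 ± 10.11 CPM per kilobase, ahead of RYK at 18.47 and WNT5A at 18.45. LRP5, at 14.4, fell behind WNT5B, at 15.45 CPM per kilobase. Members with few counts are limited by depth.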
